A study of Mus musculus with 6 samples.

Results

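A set of 45 genes of the contractile machinery, calcium handling and fuel supply of skeletal muscle fibres was followed in RNA-seq libraries of inguinal fat, and all 45 had a row among the 17342 named genes of the expression tables. They were listed by symbol, with earlier results of these data known. The study compared Rarres2-/- mice, which lack chemerin, with wild-type (WT) mice, all 8 weeks old and of strain C57BL/6, after stimulation by cold. Each genotype had 3 libraries of inguinal white adipose tissue, numbered 4 to 6 in Rarres2-/- and 1 to 3 in WT. The labels give neither the sex of the mice, the deleted part of Rarres2, nor the length and temperature of the cold, and they do not say that each library is a separate mouse, so the p-values measure the spread between libraries. Expression is given as FPKM, which scales fragments to transcript length and to the mapped fragments of the library, so that levels can be compared between genes.

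Skeletal muscle fibres contract when myosin heavy chains pull on actin filaments, and calcium released from the sarcoplasmic reticulum sets this off through troponin and tropomyosin. Fibre types differ in which gene copies they use. Myh7 marks slow type I fibres, Myh2 fast type IIa, Myh1 fast type IIx and Myh4 the fastest type IIb, and light chains, troponins, calcium pumps and calsequestrins also come in fast and slow versions. Adipocytes do not build sarcomeres, although beige and brown fat use some calcium pump genes, Atp2a2 among them.

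The heavy chain genes on which the comparison turns, Myh1, Myh2 and Myh4, are neighbours on chromosome 11 (67200102 to 67224577, 67171027 to 67197517 and 67237812 to 67260447 in GRCm38, the assembly that mm10 stands for). The 250 bases before their RefSeq starts are shown because Myh4 had another pattern over the libraries than its neighbours Myh1 and Myh2. The windows are chr11:67199852-67200101 for Myh1, chr11:67170777-67171026 for Myh2 and chr11:67237562-67237811 for Myh4, all on the plus strand. Capitals mark the MEF2 element, the site of a family of muscle transcription factors, and TATA boxes (TATAAA), each searched on both strands.
Myh1: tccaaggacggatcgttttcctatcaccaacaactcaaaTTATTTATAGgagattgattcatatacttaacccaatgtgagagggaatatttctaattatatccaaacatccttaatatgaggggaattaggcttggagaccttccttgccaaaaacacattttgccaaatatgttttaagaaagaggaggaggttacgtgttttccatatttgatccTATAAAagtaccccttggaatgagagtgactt
Myh2: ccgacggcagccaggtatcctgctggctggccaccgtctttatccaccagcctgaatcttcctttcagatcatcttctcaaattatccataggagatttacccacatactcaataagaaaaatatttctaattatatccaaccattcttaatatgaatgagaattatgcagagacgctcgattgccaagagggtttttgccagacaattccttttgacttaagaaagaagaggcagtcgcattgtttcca
Myh4: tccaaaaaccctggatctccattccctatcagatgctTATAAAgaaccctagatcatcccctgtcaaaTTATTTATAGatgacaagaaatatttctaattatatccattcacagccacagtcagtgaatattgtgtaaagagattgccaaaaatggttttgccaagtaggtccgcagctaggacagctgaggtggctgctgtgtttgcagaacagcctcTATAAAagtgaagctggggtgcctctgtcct
Myh1 and Myh4 each held 1 MEF2 element with the letters TTATTTATAG, from base 211 to 202 before the start in Myh1 and from base 182 to 173 in Myh4. They also held a TATA box from base 32 to 27 and from base 31 to 26 before the start. A further TATA box match on the other strand lies inside each MEF2 element, and Myh4 held 1 more at base 213. The Myh2 window held neither motif with these exact letters. Bases outside the 250 were not searched, so a motif there would be missed. E-boxes (CANNTG, bound by factors of the MyoD family) numbered 2 in Myh4 and 0 in Myh1 and Myh2. Of the 45 genes, 34 were matched to RefSeq promoter windows, and 7 of them (20.6%) held a MEF2 element in these 250 bases, against 3.42% of all 27025 genes with such a window. The TATA box was in 23.5% of the 34 and 14.3% of all, the E-box in 85.3% and 69.3%, and the CArG box, the site of serum response factor, in 14.7% and 1.62%. A gene with several windows was counted when any of them held the motif. These matches describe the letters and do not show a bound site.

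The libraries were first checked against their labels. Rarres2 was at 0.260 to 6.35 FPKM in Rarres2-/- libraries and 436 to 610 FPKM in WT libraries, and Adipoq, an adipocyte gene, was at 2118 to 2809 FPKM in Rarres2-/- and 2315 to 2563 FPKM in WT. FPKM holds no counts, so absolute depth is unknown. Relative to WT replicate 2, the depth read from the steps between low values was 0.698 to 1.0 in Rarres2-/- libraries, 0.486 in WT replicate 1 and 1.01 in WT replicate 3. WT replicate 1 stood apart in its makeup too, since 1 small nucleolar RNA gene, Snord2, took 62.1% of its summed FPKM, whereas the top gene took 4.99% to 16.7% in Rarres2-/- libraries and 6.86% to 8.88% in the other WT libraries. The summed FPKM was 500311 to 809109 in Rarres2-/- libraries, 1884820 in WT replicate 1 and at most 647199 in the other WT libraries. The part of this makeup in the muscle values was not tested. WT replicate 1 also stood apart in the muscle genes, and the main results that rest on it are given with and without it.

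Muscle RNA was present in all 6 libraries, and its amount differed more between libraries than between genotypes. The summed FPKM of the 45 genes was 896, 991 and 617 in Rarres2-/- replicates 4, 5 and 6, against 2573, 418 and 524 in WT replicates 1, 2 and 3. Means were 835 ± 194 in Rarres2-/- and 1172 ± 1215 in WT (SD, n = 3 each), so the groups overlapped and the spread of the WT libraries was as large as their mean. In bulk tissue, more muscle cells and more RNA per muscle cell cannot be told apart. By limma on log2(FPKM + 1), 0 of the 31 genes that averaged 1 FPKM or more over the libraries passed an adjusted p under 0.05, as did 0% of all 11086 genes tested. At an unadjusted p under 0.05 there were 3, Myh1, Myl3 and Mb, where the share of all tested genes was 3.93%. The median log2 difference, Rarres2-/- minus WT, was 0.05 over the 31 and -0.01 over all tested genes. Of the 31, 6 (Myh1, Myl2, Myl3, Mylk2, Tnnt1 and Trdn) reached the filter through 1 genotype alone, so counts over the 31 are descriptions. The other 14 genes stayed under it and are given as values.

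**Figure D1:**
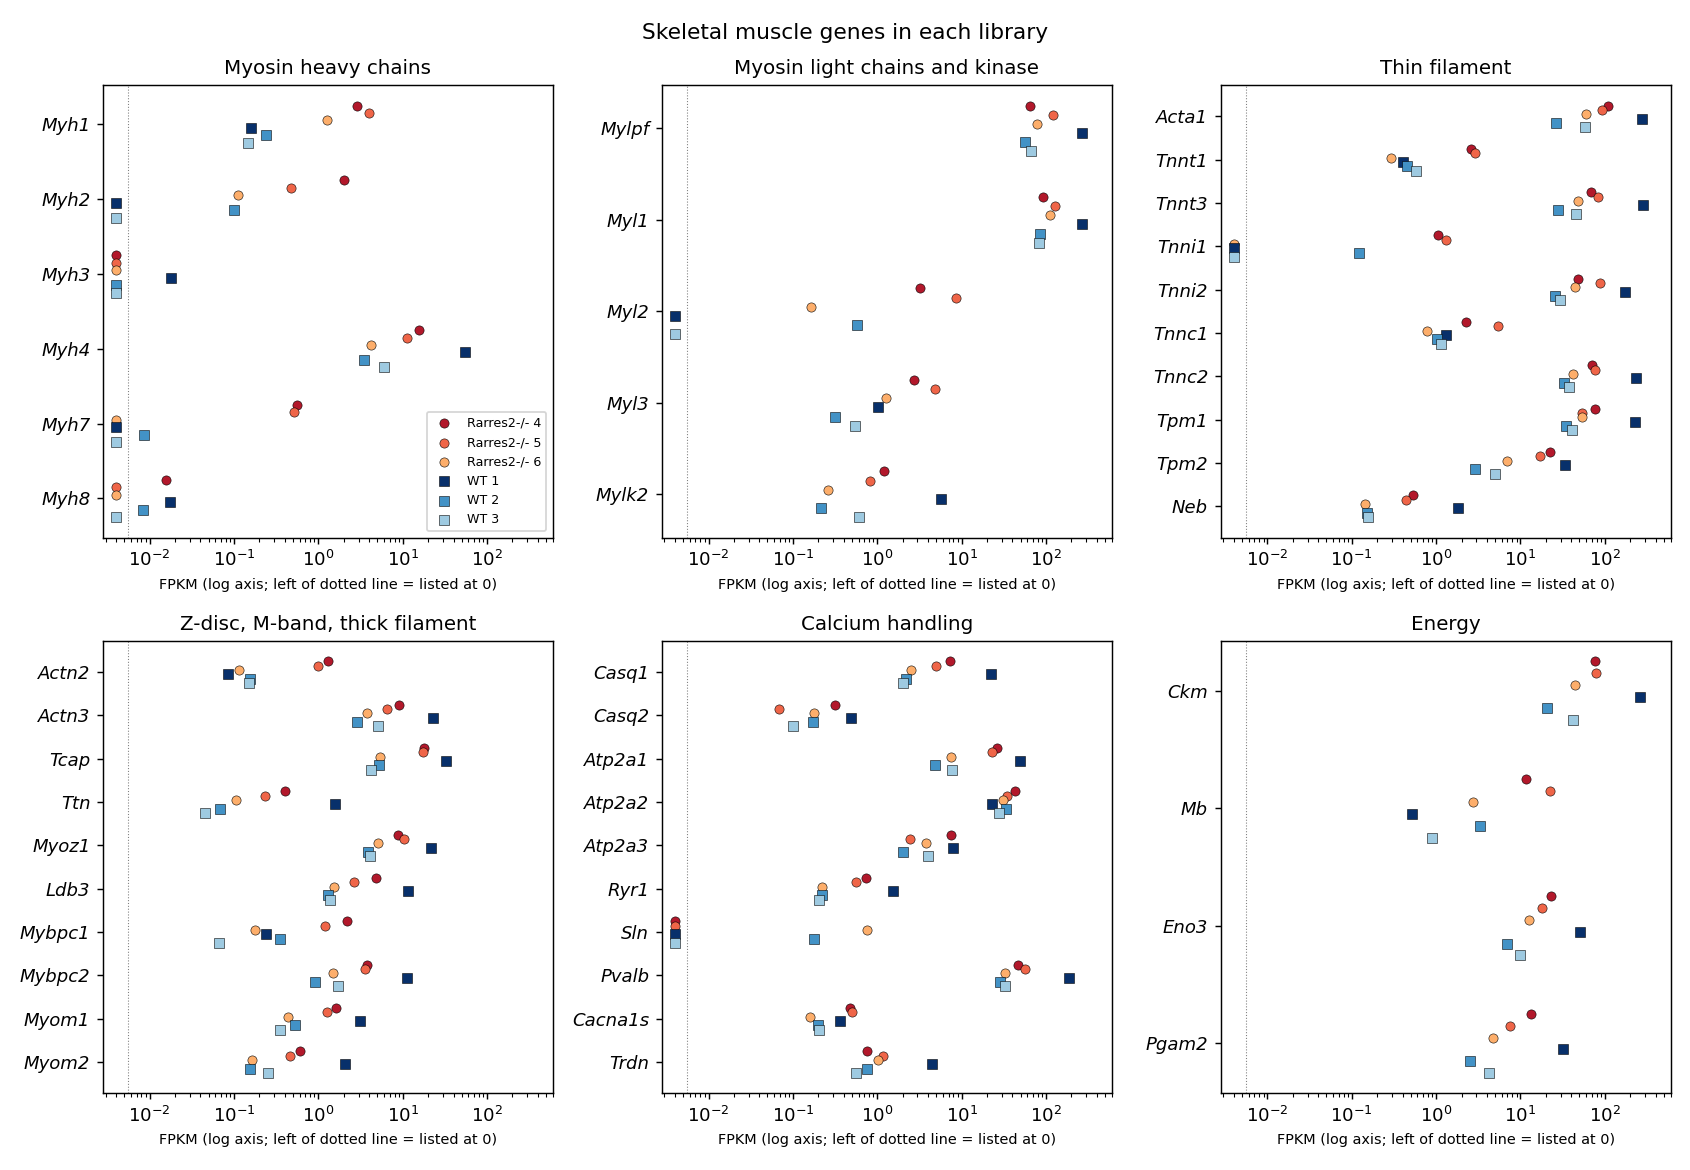
FPKM (log axis) of the 45 skeletal muscle genes in the 3 Rarres2-/- libraries (circles) and the 3 WT libraries (squares), by role, with values listed at 0 drawn left of the dotted line. WT replicate 1 is the highest library in 31 genes, while Myh1, Myh2, Myh7, Myl2, Myl3, Tnni1 and Mb are highest in Rarres2-/- replicate 4 or 5.

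A pair of patterns covered nearly all of the genes. In 31 of 45 genes the highest library was WT replicate 1, which was the highest in 26.1% of all 16937 genes not at 0 throughout. In 13 others, Myh1, Myh2, Myh7, Myl2, Myl3, Tnnt1, Tnni1, Tnnc1, Actn2, Mybpc1, Mb, Atp2a2 and Cacna1s, Rarres2-/- replicates 4 and 5 were the highest pair, as in 5.79% of all genes. The remaining gene, Sln, was highest in Rarres2-/- replicate 6. By library, Rarres2-/- replicates 4, 5 and 6 were the highest in 5, 8 and 1 of the 45 genes, against 19.8%, 13.9% and 16.5% of all genes. WT replicates 2 and 3 were the highest in 0 of the 45, against 11.6% and 12.2% of all genes. Of the 13 fast-fibre genes, 11 had WT replicate 1 highest and the exceptions were Myh1 and Myh2. Of the 8 slow-fibre genes, 7 had Rarres2-/- replicates 4 and 5 highest and the exception was Casq2. The muscle signal was thus neither uniform over the libraries nor limited to Myh1.

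**Figure D2:**
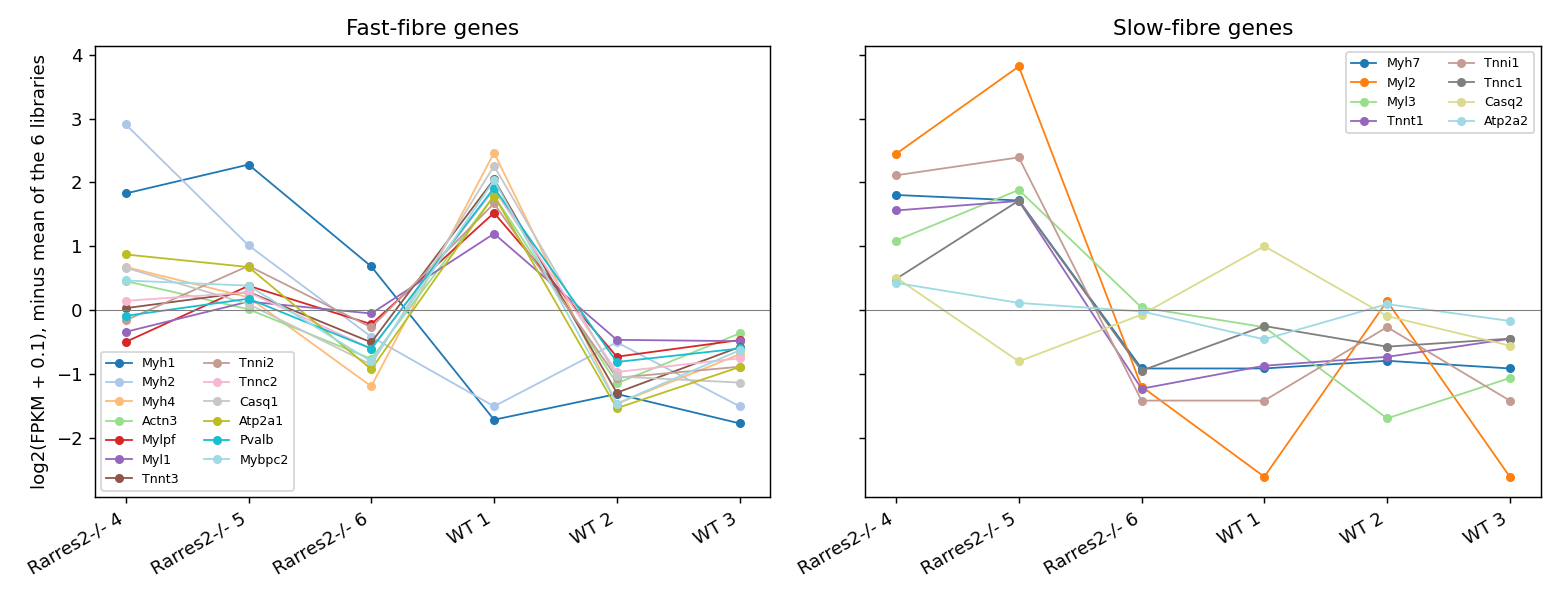
Values of log2(FPKM + 0.1) minus the mean of the 6 libraries for the 13 fast-fibre genes and the 8 slow-fibre genes, with Rarres2-/- libraries left of WT libraries and a line joining the values of 1 gene. In 11 fast genes WT replicate 1 is the peak, and in 7 slow genes, with Myh1 and Myh2, Rarres2-/- replicates 4 and 5 are the highest pair.

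Among the heavy chains, Myh1 separated the genotypes and Myh4 did not. Myh1 was at 2.91, 4.01 and 1.26 FPKM in Rarres2-/- replicates 4, 5 and 6, against 0.158, 0.241 and 0.148 FPKM in WT replicates 1, 2 and 3. Every Rarres2-/- library lay above every WT library, as in 4.65% of all genes not at 0 throughout and 5.81% of the tested genes. Myh1 reached the filter of 1 FPKM through Rarres2-/- alone and was low in WT, so its fit is a description. The means were 2.73 ± 1.38 FPKM in Rarres2-/- and 0.183 ± 0.0512 FPKM in WT (SD, n = 3 each), a ratio of 14.9, and the log2 difference was 1.58 (SE 0.301) with a limma adjusted p of 0.888 over all genes, with 0.0126 (array weights) to 1.0 over the alternatives. Without WT replicate 1 the ratio was 14.0. Myh4 was at 15.8, 11.3 and 4.25 FPKM in Rarres2-/- libraries, against 54.7, 3.50 and 6.06 FPKM in WT libraries. Its log2 difference was -0.23 (SE 0.945, limma adjusted p = 0.999) and became 0.87 when WT replicate 1 was left out. WT replicate 1 therefore held the most Myh4 of all libraries beside a Myh1 level like those of the other WT libraries.

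The remaining heavy chain genes were low. Myh2 was at 2.03, 0.472 and 0.113 FPKM in Rarres2-/- libraries, against 0.10 FPKM in WT replicate 2, and it was listed at 0 in WT replicates 1 and 3. The groups did not overlap, with Rarres2-/- replicate 6 just above WT replicate 2. Myh7 was at 0.556 and 0.519 FPKM in Rarres2-/- replicates 4 and 5 and at 0.00868 FPKM in WT replicate 2, and was listed at 0 in the other 3 libraries. The embryonic gene Myh3 had 0.0177 FPKM in WT replicate 1 alone, and the perinatal gene Myh8 reached at most 0.0154 FPKM in Rarres2-/- and 0.0176 FPKM in WT. These paralogs can share reads. Of the 50-base windows of the longest GENCODE M21 transcript, 26.1% in Myh1, 26.7% in Myh2 and 18.6% in Myh4 recur exactly in another sarcomeric heavy chain gene, 10.5% of those of Myh1 in Myh4. For the assignment of shared reads, no rule was given in the sources used here. The part of shared reads in the heavy chain values was not tested.

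The makeup of the heavy chains was compared as shares within each library, which a change in the total amount of muscle RNA alone would leave as they are. Myh1 made up 13.7%, 24.6% and 22.4% of the summed FPKM of Myh1, Myh2, Myh4 and Myh7 in Rarres2-/- replicates 4, 5 and 6, against 0.288%, 6.27% and 2.39% in WT replicates 1, 2 and 3. Myh4 made up 74.2%, 69.4% and 75.6% in Rarres2-/- and 99.7%, 90.9% and 97.6% in WT. In both shares the genotypes did not overlap. Both are parts of the same sum, so a higher Myh1 share lowers the Myh4 share and they are not separate results. The Myh1 share averaged 20.2% ± 5.77 in Rarres2-/- and 2.98% ± 3.04 in WT, and the Myh4 share 73.1% ± 3.26 and 96.1% ± 4.61 (SD, n = 3 each; exact permutation p = 0.1 for each, two-sided, the smallest possible, 0.333 adjusted over 10 shares). The difference in the Myh1 share was 17.2 percentage points and lay between 15.1 and 20.5 points when any 1 library was left out. The Myh2 share was 9.53%, 2.89% and 2.0% in Rarres2-/- and 0%, 2.61% and 0% in WT, with overlapping groups (exact permutation p = 0.2, adjusted 0.400).

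**Figure D3:**
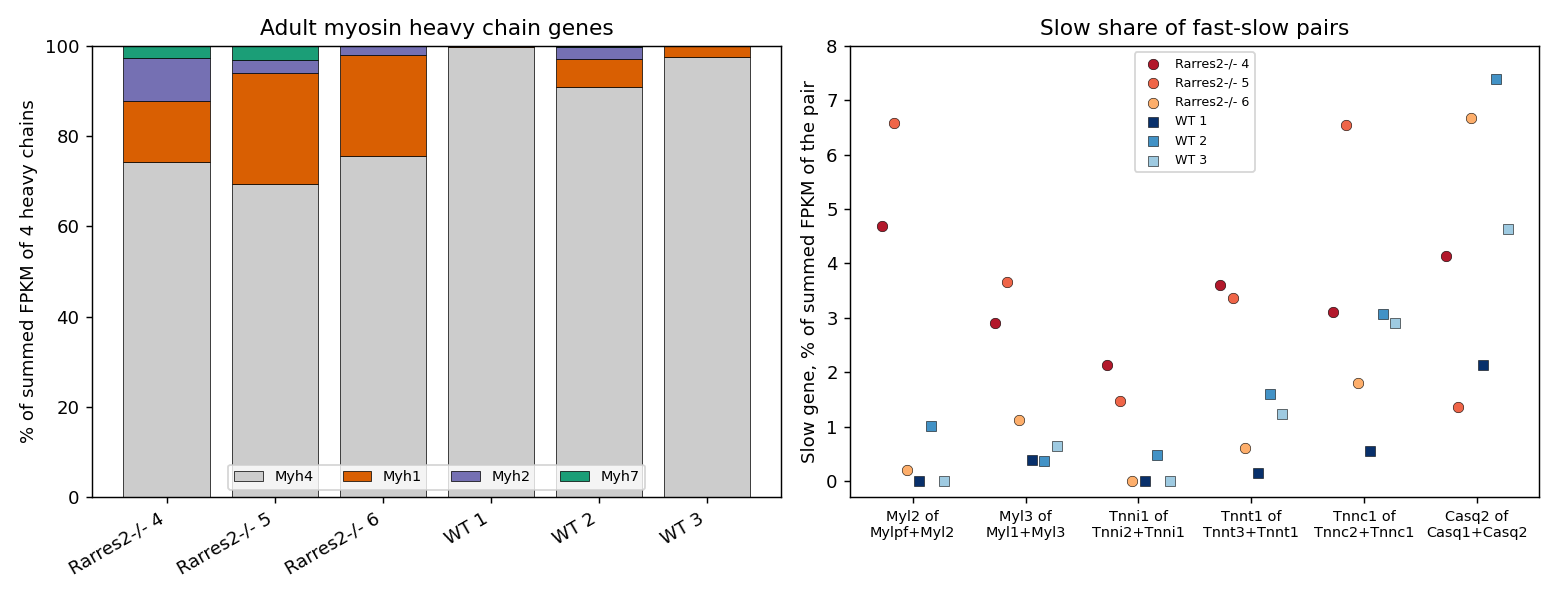
Left, the share of Myh4, Myh1, Myh2 and Myh7 in their summed FPKM for each library, with Rarres2-/- libraries left of WT libraries. Right, the slow gene as a percent of the summed FPKM of its fast-slow pair, 1 point for each library. Myh1 takes 13.7% to 24.6% in Rarres2-/- and 0.288% to 6.27% in WT.

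The light chains followed the same split between fast and slow copies. The fast regulatory light chain gene Mylpf was at 65.4, 120 and 79.3 FPKM in Rarres2-/- libraries, against 265, 55.7 and 66.7 FPKM in WT libraries. The fast essential light chain gene Myl1 was at 91.7, 127 and 112 FPKM in Rarres2-/-, against 266, 84.1 and 82.9 FPKM in WT. WT replicate 1 was highest in both, and the remaining libraries lay between 55.7 and 127 FPKM. The slow essential light chain gene Myl3 (chromosome 9, 110763678 to 110769802) was at 2.75, 4.84 and 1.28 FPKM in Rarres2-/-, against 1.01, 0.314 and 0.542 FPKM in WT. It was the third gene of the 45 in which every Rarres2-/- library exceeded every WT library, after Myh1 and Myh2, with a log2 difference of 1.20 (SE 0.359, limma adjusted p = 0.999). That direction of separation was seen in 4.65% of all 16937 genes not at 0 throughout and in 5.81% of the tested genes, so 3 of 45 genes, 2 of them among the 31 tested, is close to the background. The opposite separation was seen in 0 of the 45, against 4.2% of all genes and 4.53% of the tested genes.

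The slow regulatory light chain gene Myl2 was at 3.22, 8.47 and 0.166 FPKM in Rarres2-/- libraries, against 0.572 FPKM in WT replicate 2, and was listed at 0 in WT replicates 1 and 3. Rarres2-/- replicate 6 thus fell below WT replicate 2, and the log2 difference was 1.63 (SE 0.710, limma adjusted p = 0.999). As a share of its pair, Myl3 made up 2.57% on average in Rarres2-/- and 0.467% in WT, without overlap (exact permutation p = 0.1, two-sided, n = 3 each, adjusted 0.333). Myl2 made up 4.69%, 6.58% and 0.209% of its pair in Rarres2-/- libraries, against 0%, 1.02% and 0% in WT libraries, with overlap (exact permutation p = 0.2, n = 3 each, adjusted 0.400). Mylk2, the kinase of skeletal muscle light chains, was at 1.22, 0.811 and 0.262 FPKM in Rarres2-/-, against 5.67, 0.216 and 0.613 FPKM in WT.

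In the thin filament, skeletal actin and the fast troponins moved as a block that peaked in WT replicate 1. Acta1, the skeletal alpha-actin gene, was at 110, 92.0 and 59.8 FPKM in Rarres2-/- libraries, against 279, 26.4 and 57.5 FPKM in WT libraries. Its log2 difference of 0.16 (SE 0.793) became 1.10 when WT replicate 1 was left out and -0.58 when WT replicate 2 was. The fast troponin T gene Tnnt3 was at 69.4, 82.8 and 47.9 FPKM in Rarres2-/-, against 281, 27.7 and 45.5 FPKM in WT. The fast troponin I gene Tnni2 was at 48.3, 87.2 and 44.7 FPKM in Rarres2-/-, against 172, 25.8 and 29.1 FPKM in WT. The fast troponin C gene Tnnc2 was at 70.7, 77.4 and 42.1 FPKM in Rarres2-/-, against 236, 32.6 and 37.9 FPKM in WT. In each of the 3 fast troponin genes every Rarres2-/- library lay above WT replicates 2 and 3 and below WT replicate 1.

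The slow troponins were low and had another order. Tnnt1 was at 2.59, 2.89 and 0.290 FPKM in Rarres2-/- libraries, against 0.400, 0.451 and 0.570 FPKM in WT libraries. Tnni1 was at 1.05 and 1.30 FPKM in Rarres2-/- replicates 4 and 5 and at 0.122 FPKM in WT replicate 2, and was listed at 0 in the other 3 libraries. Tnnc1, which heart also uses, was at 2.26, 5.42 and 0.773 FPKM in Rarres2-/-, against 1.32, 1.03 and 1.14 FPKM in WT. All 3 were high in Rarres2-/- replicates 4 and 5, whereas Rarres2-/- replicate 6 was below every WT library in Tnnt1 and Tnnc1. The fast copy made up 96.4% to 99.4% of the troponin T pair in Rarres2-/- and 98.4% to 99.9% in WT. It made up 97.9% to 100% of the troponin I pair in Rarres2-/- and 99.5% to 100% in WT, and 93.5% to 98.2% of the troponin C pair in Rarres2-/- and 96.9% to 99.4% in WT. All 3 overlapped between genotypes (exact permutation p of 0.3, 0.4 and 0.4, n = 3 each, each 0.500 adjusted).

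Tropomyosin genes are shared with smooth muscle. Tpm2 was at 22.1, 17.2 and 6.89 FPKM in Rarres2-/- libraries, against 33.9, 2.86 and 4.94 FPKM in WT libraries, a log2 difference of 0.68 (SE 0.835) that was 1.64 without WT replicate 1. Tpm1 was at 53.3 to 77.1 FPKM in Rarres2-/-, and at 225, 34.8 and 40.5 FPKM in WT. The summed level of 10 smooth muscle markers, led by Acta2 and Tagln, was 145, 33.0 and 45.7 FPKM in Rarres2-/-, against 146, 31.8 and 29.4 FPKM in WT, so the list was high in Rarres2-/- replicate 4 and WT replicate 1. Its part in the tropomyosin values was not tested. Neb, which encodes the giant thin filament protein nebulin, was at 0.144 to 0.532 FPKM in Rarres2-/- and 0.153 to 1.82 FPKM in WT.

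Genes of the Z-disc, M-band and thick filament were led by the same WT library. Actn3, the fast-fibre alpha-actinin, was at 8.98, 6.59 and 3.80 FPKM in Rarres2-/- libraries, against 22.9, 2.90 and 5.05 FPKM in WT libraries. Tcap, which caps titin at the Z-disc, was at 17.7, 17.5 and 5.31 FPKM in Rarres2-/-, against 32.3, 5.20 and 4.20 FPKM in WT. Mybpc2, the fast myosin-binding protein C, was at 3.74, 3.53 and 1.5 FPKM in Rarres2-/-, against 11.3, 0.910 and 1.70 FPKM in WT. Ldb3, a Z-disc gene whose product binds alpha-actinin, was at 4.83, 2.62 and 1.52 FPKM in Rarres2-/-, against 11.6, 1.29 and 1.39 FPKM in WT. The calcineurin-binding Z-disc gene Myoz1, Ldb3 and the M-band genes Myom1 and Myom2 had the same order of the top library, WT replicate 1 being 5.46, 8.64, 6.98 and 10.1 times the mean of the other WT libraries. Ttn, which encodes titin, had the largest such ratio of the 38 genes for which one could be formed, 27.9, at 1.59 FPKM in WT replicate 1, 0.0457 to 0.0685 FPKM in the other WT libraries and 0.106 to 0.397 FPKM in Rarres2-/-.

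Actn2 and Mybpc1, which slow fibres use more than the fastest fibres do, went with the slow genes. Actn2 was at 1.30, 1.0 and 0.115 FPKM in Rarres2-/- libraries, against 0.0842, 0.153 and 0.152 FPKM in WT libraries. Mybpc1 was at 2.21, 1.21 and 0.177 FPKM in Rarres2-/-, against 0.238, 0.350 and 0.0671 FPKM in WT. In both genes only Rarres2-/- replicates 4 and 5 stood above the WT libraries, and Rarres2-/- replicate 6 lay within their range.

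Of the 10 calcium handling genes, 7 were highest in WT replicate 1, and the exceptions were Atp2a2, Cacna1s and Sln. Atp2a1, the fast-fibre SERCA pump, was at 26, 22.7 and 7.41 FPKM in Rarres2-/- libraries, against 49.3, 4.83 and 7.59 FPKM in WT libraries. Casq1, the fast calsequestrin that stores calcium, was at 7.34, 4.92 and 2.51 FPKM in Rarres2-/-, against 22.4, 2.19 and 2.04 FPKM in WT. Pvalb, a calcium buffer of the fastest fibres, was at 46.6, 56.1 and 32.6 FPKM in Rarres2-/-, against 187, 28.2 and 32.7 FPKM in WT. Without WT replicate 1 the log2 differences were 1.31 for Atp2a1, 0.84 for Casq1 and 0.52 for Pvalb, against 0.36, -0.13 and -0.34 with all libraries, and no adjusted p passed in either fit by limma.

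Atp2a2, the SERCA pump of slow fibres that most other cells also use, was at 42.5, 34.2 and 31.2 FPKM in Rarres2-/- libraries, against 23.0, 33.7 and 28.1 FPKM in WT libraries. Its range of 23.0 to 42.5 FPKM over the 6 libraries was narrow beside that of Atp2a1, and its log2 difference was 0.34 (SE 0.198, limma adjusted p = 0.999). Atp2a1 as a share of the pair was 37.9%, 39.9% and 19.2% in Rarres2-/-, against 68.2%, 12.5% and 21.3% in WT, with overlap (exact permutation p = 0.9, n = 3 each, adjusted 0.900). Atp2a3, a SERCA pump of non-muscle cells, was at 7.49, 2.46 and 3.75 FPKM in Rarres2-/-, against 7.83, 2.02 and 3.95 FPKM in WT, so its 2 highest libraries were the ones with the highest smooth muscle sums. Casq2, the slow and cardiac calsequestrin, was at 0.317, 0.0682 and 0.179 FPKM in Rarres2-/-, against 0.487, 0.175 and 0.0995 FPKM in WT, and was the slow gene that did not follow the others. Casq1 made up 95.9% of the calsequestrin pair in Rarres2-/- and 95.3% in WT (exact permutation p = 0.7, n = 3 each, adjusted 0.778).

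The release channel genes were low. Ryr1, the ryanodine receptor of skeletal muscle, was at 0.727, 0.561 and 0.223 FPKM in Rarres2-/- libraries, against 1.52, 0.223 and 0.205 FPKM in WT libraries. Cacna1s, the voltage sensor that opens it, was at 0.478, 0.508 and 0.158 FPKM in Rarres2-/-, against 0.362, 0.198 and 0.203 FPKM in WT. Trdn, which ties calsequestrin to the release channel, was at 0.755, 1.17 and 1.02 FPKM in Rarres2-/-, against 4.41, 0.753 and 0.558 FPKM in WT. Sln, which encodes sarcolipin, an uncoupler of SERCA pumps studied in muscle heat production, was at 0.759 FPKM in Rarres2-/- replicate 6 and 0.178 FPKM in WT replicate 2 and was listed at 0 in the other 4 libraries.

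Among the energy genes, myoglobin stood against creatine kinase. Ckm, the muscle creatine kinase, was at 75.8, 77.8 and 44.4 FPKM in Rarres2-/- libraries, against 263, 20.9 and 41.7 FPKM in WT libraries. Mb (chromosome 15, 77015487 to 77050668), the oxygen store of slow and oxidative fibres, was at 11.8, 22.1 and 2.71 FPKM in Rarres2-/-, against 0.513, 3.33 and 0.886 FPKM in WT. WT replicate 1 was the highest library in Ckm and the lowest in Mb. The Mb means were 12.2 ± 9.73 FPKM in Rarres2-/- and 1.58 ± 1.53 FPKM in WT (SD, n = 3 each), with WT replicate 2 above Rarres2-/- replicate 6, a log2 difference of 2.16 (SE 0.702) and a limma adjusted p of 0.999. That difference lay between 1.57 and 2.89 when any 1 library was left out. The glycolytic genes had WT replicate 1 highest, as Ckm did. The muscle enolase gene Eno3 was at 23.3, 18.0 and 12.8 FPKM in Rarres2-/-, against 50.3, 6.98 and 9.97 FPKM in WT. The muscle phosphoglycerate mutase gene Pgam2 was at 13.2, 7.52 and 4.67 FPKM in Rarres2-/-, against 32.1, 2.5 and 4.20 FPKM in WT.

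**Figure D4:**
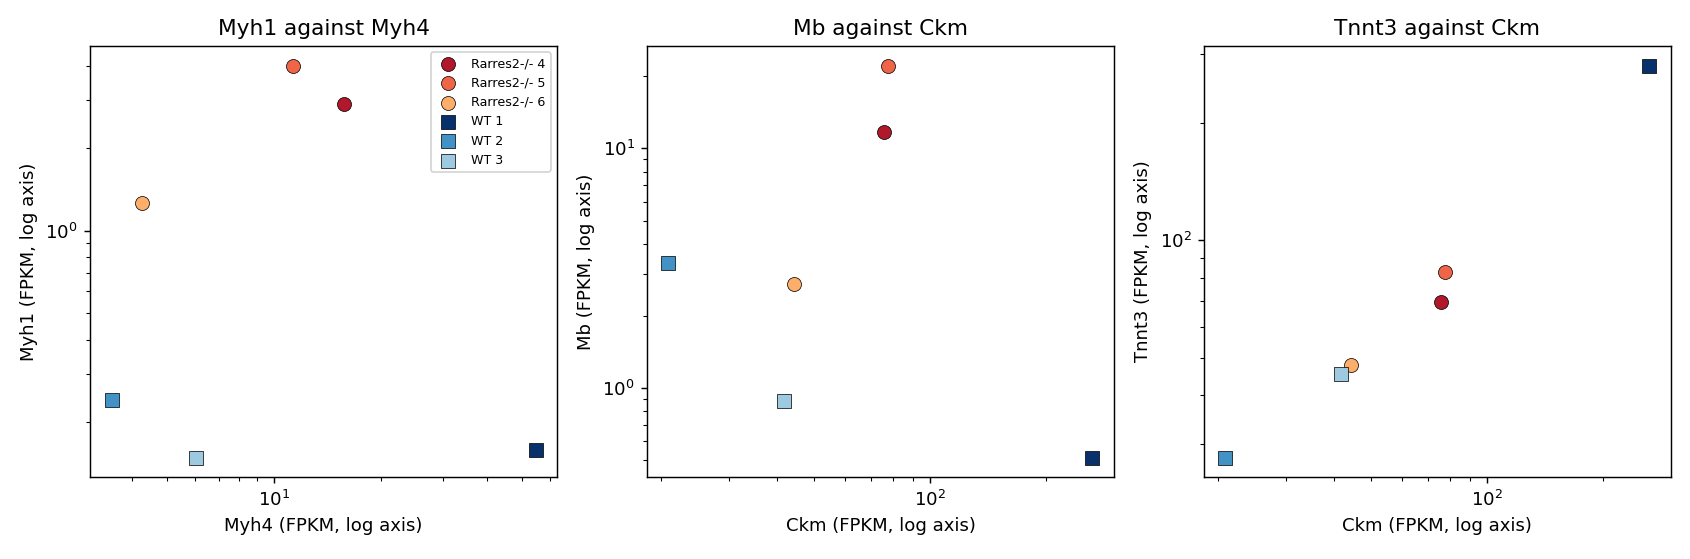
Myh1 against Myh4, Mb against Ckm and Tnnt3 against Ckm in FPKM on log axes, 1 point for each of 3 Rarres2-/- and 3 WT libraries. Tnnt3 and Ckm rank all 6 libraries in the same order, whereas WT replicate 1 has the most Myh4 and Ckm with 0.158 FPKM of Myh1 and 0.513 FPKM of Mb.

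Ratios to skeletal actin within a library varied for every gene set against it, and most for Mb and Myh1. For every 1000 FPKM of Acta1 there were 688, 845 and 742 FPKM of Ckm in Rarres2-/- libraries, against 946, 792 and 724 FPKM in WT libraries. By the same measure the fast genes Tnnt3, Pvalb and Myh4 were at 630 to 899, 423 to 610 and 71.2 to 143 in Rarres2-/-, against 791 to 1050, 568 to 1070 and 105 to 196 in WT. Myh1 was at 26.4, 43.6 and 21.1 in Rarres2-/-, against 0.568, 9.16 and 2.58 in WT. Mb was at 107, 241 and 45.4 in Rarres2-/-, against 1.84, 126 and 15.4 in WT, so WT replicate 2 was above Rarres2-/- replicates 4 and 6. Rarres2-/- replicate 6 and WT replicate 3 held nearly the same Ckm (44.4 and 41.7 FPKM), Tnnt3 (47.9 and 45.5 FPKM) and Acta1 (59.8 and 57.5 FPKM). Their Myh1 differed, at 1.26 and 0.148 FPKM, as did their Tnni2 (44.7 and 29.1 FPKM) and Mb (2.71 and 0.886 FPKM). That sets 1 library against 1, and the cause of these differences was not tested. Of the 8 slow genes, Myl3 was above every WT library in Rarres2-/- replicate 6, at 1.28 FPKM against at most 1.01 FPKM in WT. Myh7 and Tnni1 were listed at 0 in Rarres2-/- replicate 6, Tnnt1 and Tnnc1 were below every WT library, and Myl2, Atp2a2 and Casq2 lay within the WT range.

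Leaving out WT replicate 1 turned most directions of the FPKM means. Of the log2 differences in the limma fit, it turned 11 and left 17 as they were. The mean of the Rarres2-/- libraries was above the WT mean in 15 of 45 genes with all libraries, against 46.6% of all genes, and in 44 of 45 without WT replicate 1, against 53.1% of all genes. The exception was Myh3. Without that library the median log2 difference was 0.85 over the 28 genes still tested, and 0 of them passed by limma. At an unadjusted p under 0.05 there were 14 of the 28, where the share of all genes in that fit was 8.91%. That library was singled out because these genes peak in it, and they vary together. The 14 are therefore a description, not separate results. Without WT replicate 2 or WT replicate 3 there were 3 of 31 each, with median log2 differences of -0.44 and -0.27. Over all genes in those fits there were 276 of 11114 and 286 of 11094. WT replicate 1 exceeded the mean of the other WT libraries by 3.19 (Myl1) to 11.4 (Myh4) times in 11 fast-fibre genes, whereas Myh1 was at 0.812 times that mean and Mb at 0.243. Of the 5 slow genes with such a ratio, 3 were above 1, with Atp2a2 at 0.744, Tnnt1 at 0.785, Tnnc1 at 1.21, Myl3 at 2.37 and Casq2 at 3.55.

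Other genes of skeletal muscle, outside the 45, were taken from a list of 50, of which 47 had a row and 23 were tested. With limma 0 of the 23 passed, and 0 had an unadjusted p under 0.05. The highest library was WT replicate 1 in 34 of 47, and the median log2 difference was 0.01. The sum of the list was 97.5, 91.4 and 58.9 FPKM in Rarres2-/- libraries, against 160, 48.8 and 51.8 FPKM in WT libraries. The tested genes with the smallest p were Mef2c, Cox6a2, Smyd1 and Srl, with log2 differences of -0.24, 0.77, 0.28 and 0.23 and a limma adjusted p of 0.999 for each. Rarres2-/- replicates 4 and 5 were the highest pair in 4 of the 47 genes, named here after their values were seen. Csrp3, a LIM protein of slow and cardiac muscle, was at 0.936, 1.86 and 0.431 FPKM in Rarres2-/-, against 0.154 and 0.149 FPKM in WT replicates 1 and 2 and listed at 0 in WT replicate 3. Myoz2, the slow and cardiac relative of Myoz1, was at 0.530, 1.48 and 0.216 FPKM in Rarres2-/-, against 0.10 FPKM in WT replicate 2 and listed at 0 in WT replicates 1 and 3. The others were Ankrd2, a stretch-responsive gene of slow muscle, and Fbxo32, a ubiquitin ligase gene of muscle wasting.

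Csrp3 and Myoz2 were the genes of that list with all Rarres2-/- libraries above all WT libraries, and Myod1 and Mef2c, transcription factors of muscle, were those with the opposite order. These counts of 2 of 47 each are close to the shares of 4.65% and 4.2% over all genes. Myod1 was listed at 0 in all Rarres2-/- libraries and was at 0.358, 0.0630 and 0.0305 FPKM in WT libraries. The satellite cell gene Pax7 was at no more than 0.0120 FPKM in Rarres2-/- and 0.0259 FPKM in WT. Ckmt2, the mitochondrial creatine kinase of striated muscle and brown fat, was at 4.56, 3.94 and 0.517 FPKM in Rarres2-/-, against 0.733, 0.673 and 0.273 FPKM in WT, the order of the slow genes.

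The sum of 5 heart muscle markers with a row was 0.492 to 1.80 FPKM in Rarres2-/- and 0.385 to 1.55 FPKM in WT, with the atrial peptide gene Nppa listed at 0 in 5 libraries. The sum of 10 brown and beige fat markers was 789, 1431 and 2031 FPKM in Rarres2-/-, against 1571, 1496 and 1384 FPKM in WT, and Rarres2-/- replicate 4 was the lowest. Cox8b, at 454 to 1419 FPKM in Rarres2-/- and 1022 to 1123 FPKM in WT, made up most of that sum. By gene, Rarres2-/- replicate 4 was the highest library in 4 of the 10. In 3 of the 10, Ucp1, Dio2 and Otop1, every Rarres2-/- library was above every WT library, against 4.65% of all genes, and their limma adjusted p was 0.999 each. The sum of 8 white adipocyte markers was 40044 to 75860 FPKM in Rarres2-/- and 58861 to 74734 FPKM in WT, with the lowest value in Rarres2-/- replicate 4. Such separation was also seen here, with 2 of the 8, Plin1 and Lipe, higher in every Rarres2-/- library. The opposite order was seen in 1, Cfd, against 4.2% of all genes. The part of these cell types and of depth in the muscle values was not tested.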

How the data were processed

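The authors deposited 1 table of FPKM for each of the 6 libraries, per the file headers. In WT replicate 3 the header holds the sample's name, not a unit, and its values were read as FPKM, their median over tested genes (9.23) lying within the 9.05 to 9.37 of the others. Bowtie and mm10 are named in the submitters' processing notes. The sources used here give no program for FPKM, annotation, strand or handling of shared reads. The 737 rows without a symbol (0.793% to 4.91% of summed values) were left out.

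The 11086 genes averaging 1 FPKM or more entered a limma fit (version 3.58.1, R 4.3.3) on log2(FPKM + 1), a scale that understates changes of low genes. Genotype was the only term, the contrast was Rarres2-/- minus WT, and eBayes used a trend and two-sided tests. Benjamini-Hochberg adjustment was over all tested genes, with a threshold of 0.05. Isoform shares were compared by exact permutation tests over libraries (scipy 1.17.1), where 3 against 3 cannot go below p = 0.1. The limma step was tested on simulated data. Alternatives were another pseudocount, filters, scalings, array weights and each library left out in turn.

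The genes and lists were chosen with earlier results of these data known. Every one of the 45 is reported. Values in every library are given for the adult heavy chains, both genes of each fast-slow pair, Ckm, Acta1, Ryr1, Sln and Pvalb, and the members of each role group with the smallest p. Of the other lists, up to 4 tested genes with the smallest p could be named, and others (Pax7, Acta2, Tagln, Nppa, Myod1 and Cox8b) were chosen after their values were seen.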

Additional observations from a re-analysis of the deposited data

How the results depend on the processing

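The count of 0 genes called by limma became 1 with a filter of 5 FPKM in 3 libraries, 1 with scaling without the 20 most abundant genes, 1524 with array weights, and 0 to 1 when 1 library was left out. None of the 45 was the gene called in those fits apart from array weights. With array weights 11 of the 31 tested genes of the 45 were called, all higher in Rarres2-/-. They were Atp2a1, Mb, Myh1, Myl2, Myl3, Myoz1, Tcap, Tnnc1, Tnni2, Tnnt1 and Tpm2. Of these, Myh1, Myl2, Myl3 and Tnnt1 reached the filter through Rarres2-/- alone, so their calls are descriptions. With the same weights 13.7% of all tested genes were called, as were 2 of the 23 other muscle genes tested. That fit gave WT replicate 1 a weight of 0.192 and Rarres2-/- replicate 5 one of 6.19, and its estimation of weights stopped before convergence. Signs that turned under array weights, as log2 differences, were Myh4 0.93, Actn3 0.54, Mylpf 0.82, Myl1 0.51, Mylk2 0.26, Tnnt3 1.04, Tnnc2 0.94, Tpm1 0.43, Casq1 0.75, Atp2a3 -0.089, Pvalb 0.70, Ldb3 0.51, Mybpc2 0.85, Trdn 0.31. With a pseudocount of 0.1 Mybpc2 was at 0.034, and with quantile normalization Myom1 was at -0.019. The median over the tested genes of the 45 ran from -0.44 to 0.85 with 1 library left out. In those fits 21 of the 31 tested genes changed sign, with ranges of Myh4 -0.95 to 0.87, Acta1 -0.58 to 1.10, Actn3 -0.75 to 0.56, Mylpf -0.64 to 0.48, Myl1 -0.45 to 0.39, Tnnt3 -0.79 to 0.86, Tnni2 -0.31 to 1.04, Tnnc2 -0.62 to 0.79, Tpm1 -0.66 to 0.67, Tcap -0.15 to 1.19, Ckm -0.71 to 1.09, Casq1 -0.63 to 0.84, Atp2a1 -0.25 to 1.31, Atp2a3 -0.35 to 0.42, Pvalb -0.82 to 0.52, Eno3 -0.36 to 0.99, Pgam2 -0.57 to 1.05, Myoz1 -0.29 to 0.81, Ldb3 -0.54 to 0.68, Mybpc2 -0.61 to 0.73, Myom1 -0.30 to 0.26. The remaining 10, among them Myh1 (1.51 to 1.90), Myl3 (0.87 to 1.55) and Mb, kept their sign in those leave-one-out fits in which they were tested. Mylk2 and Trdn, both lower in Rarres2-/- with all libraries, fell under the filter without WT replicate 1 and were not tested there. Their Rarres2-/- mean in FPKM was then above the WT mean, so the count of 10 depends partly on the filter. Myh1, Myl2 and Tnnt1 were not tested without Rarres2-/- replicate 5, nor was Tnnt1 without Rarres2-/- replicate 4. The Atp2a1 share ran from -12.4 to 15.4 percentage points and the Casq1 share from -0.683 to 1.97 points, and the Atp2a1 log2 ratio gave 0.067. The other 8 shares kept their direction in every alternative run. No paired analysis was possible because the genotypes share no replicate numbers. Depth is unknown in counts, which limits genes under 1 FPKM most.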
